A study of Mus musculus with 12 samples.

Results

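The genes described here are 10 imprinted genes of bone and brain: H19, Igf2, Grb10, Cdkn1c, Dlk1, Meg3, Mest, Peg3, Snrpn and Ndn. They were chosen by name, and each of the 10 symbols was found among the 22317 gene symbols of the deposited count table. Photothrombosis is a model of stroke in which laser light on an injected dye, Rose Bengal, makes vessels clot locally, and the study followed how an ischemic injury of the skull is met in the brain and an injury of the brain in the skull. The mice were male BALB/c, aged 8 weeks, and the 12 poly(A) RNA-seq libraries form 4 groups of 3. The groups SB2 and SB4 are labelled brain cortex on day 2 and day 4 of ischemic injury in skull, and BS2 and BS6 are labelled interparietal bone on day 2 and day 6 of ischemic injury in brain. All 4 groups therefore come from injured mice, and uninjured controls and the tissue that was injured directly are not analysed here. Bulk tissue was sequenced, so fewer cells of a type and less RNA per cell cannot be told apart.

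Total counts were 14126082 to 18972654 per library, and the upper limit for a gene without reads, 3 counts, lay at 0.163 to 0.218 CPM (counts scaled to library size with TMM factors). The labelled tissues were checked against marker genes. The summed level of 8 neuron markers was 34.3 to 71.2 CPM in SB2 and 44.6 to 128 CPM in BS6, against 9370 to 9670 CPM in SB4 and 9050 to 9300 CPM in BS2. For 7 osteoblast and osteocyte markers the sums were 36800 to 41900 CPM in SB2 and 19200 to 79400 CPM in BS6, against 22.5 to 24.7 CPM in SB4 and 23.5 to 33.4 CPM in BS2, and no marker of either list was at 0 in any group. The tissue markers thus go against the labels of SB2 and of BS2, and the days of each series cannot be told apart from this change of tissue content. Whether the labels of these 2 groups were exchanged was not tested, and an exchange would change which tissue, injury and day every SB4 against SB2 and BS6 against BS2 value compares. Groups are called below by their labels, and SB2 and BS6 together are called the bone-rich groups and SB4 and BS2 the neuron-rich groups after these markers. The third SB2 library held less skeletal muscle RNA than the others (288 CPM over 6 markers, against 1930 and 2480 CPM), and the second BS6 library held more neutrophil RNA (23400 CPM over 5 markers, against 1350 and 3240 CPM).

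An imprinted gene is read from the maternal or the paternal chromosome alone, according to methylation marks set in the germ line. Many imprinted genes act on growth, and they are often strongly expressed in the embryo and turned down after birth, with lasting expression in particular tissues such as brain. H19, Igf2 and Cdkn1c lie in neighbouring clusters on the distal part of mouse chromosome 7, Snrpn and Ndn lie in the cluster that corresponds to the human Prader-Willi region, and Dlk1 and Meg3 share a cluster on chromosome 12. The counts do not separate the alleles, so they give the total RNA of each gene and nothing on its imprint.

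Every one of the 10 genes differed between SB4 and SB2. In the quasi-likelihood test of edgeR, adjusted after Benjamini and Hochberg and called at an adjusted p under 0.05 and a log2 fold change over 1 in size, 4 genes were higher in SB4 (Meg3, Peg3, Snrpn and Ndn) and 6 were lower (H19, Igf2, Grb10, Cdkn1c, Dlk1 and Mest). The same rule called 56.4% of the 17293 genes tested, 27.8% higher and 28.6% lower, so a call alone sets the 10 genes little apart. Between BS6 and BS2 the test called 9 of the 10, and it called 55.5% of all 17311 genes tested. Of these 9, 5 were higher in BS6 (H19, Igf2, Grb10, Cdkn1c and Dlk1), where the background was 29%, and 4 were lower (Meg3, Peg3, Snrpn and Ndn), where it was 26.5%. Mest was not called. The median size of the log2 fold change over the 10 genes was 3.08 in the first comparison and 3.94 in the second, beside 1.25 and 1.26 over all genes tested. The log2 fold changes of both comparisons had opposite signs for all 10 genes, and the difference between them had an adjusted p under 0.05 for 10 of 10 genes (edgeR contrast over the 12 libraries, a call that 84.9% of 18068 genes met). Without the first BS6 library it was 9 of 10, since Mest missed the threshold (edgeR adjusted p = 0.0734).

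**Figure D1:**
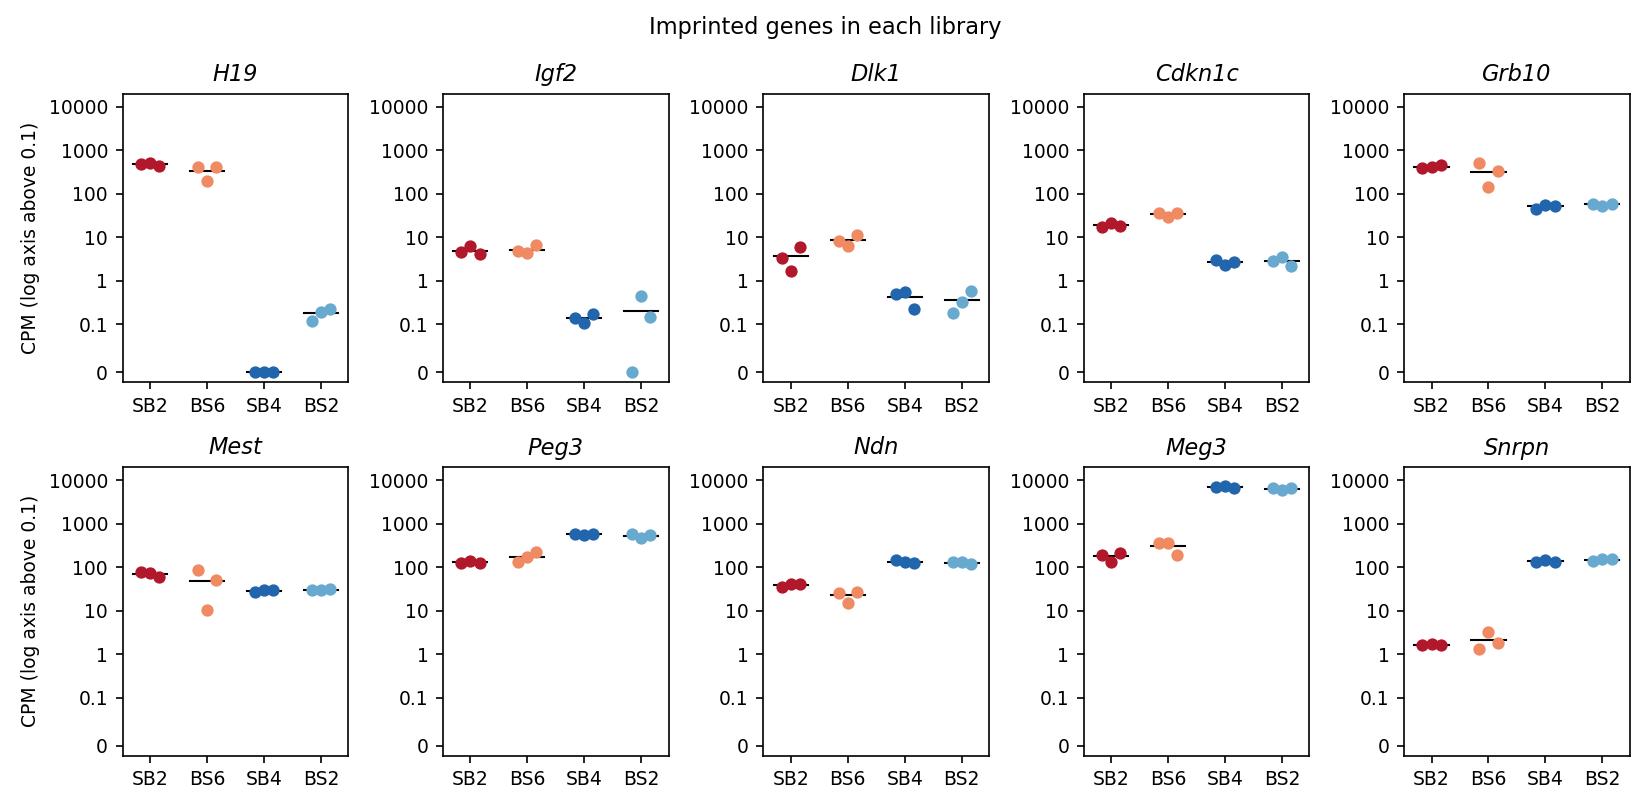
Level of each of the 10 genes in each of the 12 libraries, in CPM on an axis that is logarithmic above 0.1 and linear below; points are libraries 1 to 3 of a group from left to right and bars are group means. H19, Igf2, Dlk1, Cdkn1c and Grb10 stand higher in SB2 and BS6, Peg3, Ndn, Meg3 and Snrpn stand higher in SB4 and BS2, and the second BS6 library of Mest lies below all other libraries.

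Igf2 encodes a fetal growth factor read from the paternal allele, and H19 is a long noncoding RNA read from the maternal allele of the same locus. H19 lies on the minus strand of chr7:142575529-142578143 (mm10), and Igf2 on the minus strand of chr7:142650766-142666816. H19 was counted at 470.3, 516 and 433 CPM in SB2 and at 405, 197 and 417 CPM in BS6. In SB4 its count was 0 in all 3 libraries, and in BS2 it was 2, 3 and 3 reads. The bone-rich and the neuron-rich libraries thus did not overlap, and the second BS6 library was the lowest of the bone-rich ones. H19 was at least 2610-fold lower in SB4 than in SB2, taking the mean of the per-library floors of 3 counts for SB4 (edgeR adjusted p = 1.2e-11). BS6 exceeded BS2 1950-fold, with a 95% counting interval of 989 to 4510 because BS2 held 8 reads in all (edgeR adjusted p = 8.42e-06). No BS2 library was above the limit of 3 counts, so this fold is not exact. Per kb of exon H19 was the most abundant of the 10 transcripts in SB2, at 192 CPM per kb, while Grb10 came next at 45.6 CPM per kb.

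An exon of H19 holds the precursor of miR-675, and an exon of Meg3 holds that of miR-770. The mature miRNAs are shown because their host transcripts are the long noncoding RNAs with the largest differences in opposite directions. The sequences are those of RefSeq (GRCm38.p6), with the seed, bases 2 to 8, in capitals, and the 4 seeds differ. Mature miRNAs were not measured in these libraries of poly(A) RNA.
miR-675-5p, chr7:142577112-142577133, minus strand: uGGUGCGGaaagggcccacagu
miR-675-3p, chr7:142577078-142577099, minus strand: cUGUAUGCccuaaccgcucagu
miR-770-5p, chr12:109563710-109563731, plus strand: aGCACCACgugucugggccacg
miR-770-3p, chr12:109563744-109563765, plus strand: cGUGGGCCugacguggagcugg

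Igf2 itself was low in every group. Its levels were 4.44, 6.26 and 4.03 CPM in SB2 and 4.70, 4.23 and 6.62 CPM in BS6, from 66 to 104 reads a library. In SB4 it had 2, 2 and 3 reads, and in BS2 it had 0, 7 and 2. All 6 bone-rich libraries stood above all 6 neuron-rich ones. No SB4 library was above the limit of 3 counts, so the fold against SB4 is not exact. Igf2 was 35.0-fold lower in SB4 than in SB2 (95% counting interval 16.7 to 88.1, edgeR adjusted p = 1.56e-07). It was 26.6-fold higher in BS6 than in BS2 (13.8 to 58.9, edgeR adjusted p = 0.000966). The latter value turned on single BS2 libraries, with a fitted log2 fold change of 4.71 ± 0.70 (SE) from all libraries, 6.15 ± 0.78 without the second BS2 library, which held 7 of the 9 reads, and 4.08 ± 0.53 without the first, which held 0 (edgeR adjusted p = 0.00169 and 0.00165). In the annotation 62.8% of the exon bases of Igf2 also belong to Gm49394, a gene model on the same strand. Gm49394 is not among the counted gene symbols, so reads there may have been counted for Igf2 or left out. Within SB2, the log2 ratio of H19 to Igf2 reads per kb was 7.82 ± 0.21 (SD, n = 3), and within BS6 it was 7.19 ± 0.44. These overlapped (exact permutation test, two-sided, p = 0.2, 0.267 adjusted over 12 ratio tests). In the neuron-rich groups the ratio rests on counts near 0 and is not given.

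Grb10 encodes an adaptor that binds the insulin and IGF1 receptors and restrains growth. It is read from the maternal allele in most tissues and from the paternal allele in neurons, where other promoters are used. Grb10 (minus strand of chr11:11930508-12038683) stood at 388, 409 and 447 CPM in SB2 and at 495, 143 and 325 CPM in BS6. In SB4 it was at 45.5, 54.5 and 51.9 CPM and in BS2 at 58.3, 51.4 and 59.1 CPM. The groups rich in bone transcripts lay above the others without overlap, although the second BS6 library was well under the rest of its group. Its log2 fold change was -3.03 ± 0.09 (SE) in SB4 against SB2 (edgeR adjusted p = 5.8e-11) and 2.55 ± 0.43 in BS6 against BS2 (edgeR adjusted p = 0.00181). The 2 RefSeq start windows of 300 bases differ in their CpG content, with 45 CpG at chr11:12037371-12037670 and 9 at chr11:12027922-12028221, and the counts per symbol do not tell which start was used.

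The IGF pathway list held 20 further genes (ligand IGF1, receptors, substrates, binding proteins and their proteases). In SB4 against SB2 2 were higher, 13 lower and 4 not called among 19 tested, beside 27.8% higher and 28.6% lower over all genes, with a median log2 fold change of -2.63. In BS6 against BS2 13 were higher, 1 lower and 4 not called among 18 tested, beside 29% higher and 26.5% lower, with a median of 2.21. Over all genes the medians were -0.0149 and 0.02. Igfbp5, a binding protein that is abundant in bone, averaged 4429 ± 445 CPM (SD, n = 3) in SB2 and 3020 ± 868 CPM in BS6, against 111 ± 5.59 CPM in SB4 and 138 ± 9.93 CPM in BS2. Pappa2, a protease that cleaves IGF binding proteins, averaged 49.1 ± 10.7 CPM in SB2 and 1.30 ± 0.63 CPM in SB4. The insulin receptor substrate Irs2 went the other way, with 17.5 ± 0.74 CPM in SB2 and 61.3 ± 0.62 CPM in SB4 (log2 fold change 1.81 ± 0.08 SE, edgeR adjusted p = 1.43e-09). Irs2 was not called in BS6 against BS2 (30.3 ± 3.62 and 49.95 ± 1.39 CPM, log2 fold change -0.68 ± 0.12), and BS6 against SB2 gave 0.81 ± 0.13 (edgeR adjusted p = 0.0327), under the fold threshold. In BS6 against SB2 edgeR called 0 of 19 tested genes of this list, beside 1.86% of all genes. At an unadjusted edgeR p under 0.05 it was 5, beside 29.2%. DESeq2 called 1, beside 6.47%. This was Igf1 (named after its values were seen), at 204 ± 10.3 CPM in SB2 and 80.9 ± 35.9 CPM in BS6, with a log2 fold change of -1.32 ± 0.34 and an adjusted p of 0.0726 in edgeR and 0.00374 in DESeq2. In BS2 against SB4 edgeR and DESeq2 called 0 of 18 tested genes, beside 0.147% and 0.277% of all genes. At an unadjusted p under 0.05 it was 6 in edgeR, beside 11.9%. At an edgeR adjusted p under 0.05 alone it was 3, for which no share over all genes is given here. Among them were Igfbp5 (log2 fold change 0.33 ± 0.06 SE, edgeR adjusted p = 0.00648) and Irs2 (-0.28 ± 0.07, 0.042), which did not pass the fold threshold. Igf2r, the maternally expressed receptor that clears IGF2, averaged 185 ± 23.9 CPM in SB2, 160 ± 53.4 CPM in BS6, 52.5 ± 4.41 CPM in SB4 and 52.4 ± 3.45 CPM in BS2. Ligand and clearing receptor therefore were both higher in the bone-rich groups.

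Cdkn1c, a maternally expressed inhibitor of cyclin-dependent kinases, lies on the minus strand of chr7:143458339-143461050. SB2 had 16.8, 21.4 and 17.9 CPM and BS6 had 36.5, 28.3 and 35.4 CPM. SB4 had 2.91, 2.23 and 2.73 CPM and BS2 had 2.83, 3.59 and 2.18 CPM. No neuron-rich library reached the lowest bone-rich one, and all 3 BS6 libraries were above all 3 SB2 libraries. The summed level of 4 erythroid markers was also higher in BS6 (7550 to 12200 CPM) than in SB2 (1240 to 4510 CPM). Within BS6 the second library had the highest sum (12200 CPM) and the lowest Cdkn1c and Dlk1 (28.3 and 6.22 CPM). Within SB2 the second library had the highest sum (4510 CPM), the highest Cdkn1c (21.4 CPM) and the lowest Dlk1 (1.67 CPM). The part of erythroid RNA in the levels of Cdkn1c and Dlk1 was not tested. The log2 fold change of Cdkn1c was -2.83 ± 0.17 (SE) in SB4 against SB2 (edgeR adjusted p = 2.21e-08) and 3.57 ± 0.22 in BS6 against BS2 (edgeR adjusted p = 2.16e-05). An antisense gene model, Gm44732, covers 30.7% of its exon bases, and the use of strand in the counting is not given in the sources used here. Cdk2, a kinase of the cell cycle that inhibitors of this family bind, was at 55.9 ± 2.92 CPM in SB2 (SD, n = 3), 72.2 ± 30.9 CPM in BS6, 2.48 ± 0.91 CPM in SB4 and 2.59 ± 0.65 CPM in BS2.

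Dlk1 encodes a paternally expressed transmembrane protein of the Notch ligand family that holds back differentiation of mesenchymal precursors, and Meg3 is the maternally expressed long noncoding RNA of the same cluster. Dlk1 (plus strand of chr12:109452823-109463336) was low, with 3.36, 1.67 and 6.04 CPM in SB2 and 8.35, 6.22 and 11.01 CPM in BS6. Its counts were 7, 10 and 4 reads in SB4 and 3, 5 and 8 reads in BS2. Dlk1 was 8.98-fold lower in SB4 than in SB2 (95% counting interval 5.70 to 14.9, edgeR adjusted p = 0.000476) and 24.6-fold higher in BS6 than in BS2 (14.9 to 43.4, edgeR adjusted p = 0.000114). The ranges of the bone-rich and neuron-rich libraries did not meet, and Dlk1 also did not overlap between BS6 and SB2.

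Meg3 (plus strand of chr12:109541001-109571726) was the most abundant of the 10 transcripts per kb in SB4, at 379.7 CPM per kb. It stood at 6803, 7145 and 6657 CPM in SB4 and at 6479, 5864 and 6517 CPM in BS2. SB2 held 193, 129 and 217 CPM and BS6 held 359, 366 and 192 CPM. The neuron-rich libraries were all above the bone-rich ones, and the third BS6 library fell inside the SB2 range. Meg3 rose with a log2 fold change of 5.26 ± 0.20 (SE) in SB4 against SB2 (edgeR adjusted p = 1.14e-08) and fell by 4.32 ± 0.31 in BS6 against BS2 (edgeR adjusted p = 3.94e-05). Rian and Mirg, noncoding RNAs downstream of Meg3 in the same cluster, followed its direction, with log2 fold changes of 3.73 ± 0.12 and 2.79 ± 0.11 in SB4 against SB2 (edgeR adjusted p = 8.31e-11 and 7.4e-10) and -3.59 ± 0.44 and -2.46 ± 0.44 in BS6 against BS2 (edgeR adjusted p = 0.000424 and 0.00238). Dlk1 went against all 3 although it shares their cluster. Rtl1 and Dio3, further paternally expressed genes of this cluster (named after their values were seen), differed in direction. Rtl1 averaged 0.377 CPM in SB2 and 0.742 CPM in BS6, against 7.48 CPM in SB4 and 8.96 CPM in BS2. Dio3 averaged 0.955 CPM in SB2 and 2.02 CPM in BS6, against 0.170 CPM in SB4 and 0.275 CPM in BS2. The log2 ratio of Meg3 to Dlk1 reads per kb was 4.07 ± 0.55 (SD, n = 3) in SB2, 3.46 ± 0.91 in BS6, 12.3 ± 0.62 in SB4 and 12.4 ± 0.79 in BS2. The ratio differed by 8.24 between SB4 and SB2 and by -8.97 between BS6 and BS2 (exact permutation tests, two-sided, both p = 0.1, the smallest that 3 against 3 allows, 0.15 adjusted over 12 tests).

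The RefSeq window around a Meg3 start (chr12:109540746-109541045, plus strand, 250 bases before to 50 after the start) is shown with the letters TTTATATAAA in capitals. They hold TATAAA on both strands, in overlap, and 13.6% of 32851 such windows hold TATAAA on either strand.
Meg3: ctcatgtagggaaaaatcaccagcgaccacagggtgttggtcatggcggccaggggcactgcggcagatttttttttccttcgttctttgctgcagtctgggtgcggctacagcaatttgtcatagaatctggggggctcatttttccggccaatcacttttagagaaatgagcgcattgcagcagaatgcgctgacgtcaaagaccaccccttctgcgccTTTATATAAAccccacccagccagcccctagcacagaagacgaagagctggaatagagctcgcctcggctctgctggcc

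Snrpn encodes SmN, a spliceosomal protein of neurons and heart that takes the place of the widely expressed SmB proteins of Snrpb, and Ndn encodes necdin, a MAGE family protein of postmitotic neurons. Both are read from the paternal allele. Snrpn (minus strand of chr7:59982495-60140219) stood at 134, 148 and 133 CPM in SB4 and at 137, 151 and 152 CPM in BS2. SB2 held 1.60, 1.73 and 1.59 CPM and BS6 held 1.30, 3.26 and 1.78 CPM. The 2 levels were far apart, and the second BS6 library, which also had the highest sum of neuron markers among the bone-rich libraries (128 CPM), was the highest of the low ones. The part of neuronal RNA in its Snrpn level was not tested. Snrpn had a log2 fold change of 6.40 ± 0.10 (SE) in SB4 against SB2 (edgeR adjusted p = 1.1e-12) and -6.06 ± 0.34 in BS6 against BS2 (edgeR adjusted p = 1.7e-05). Of all genes tested, 5.37% and 5.56% had a larger change in size. Gm38393, a gene model on the same strand that shares 27.3% of the exon bases, followed with 10.97 CPM in SB4 and 0.27 CPM in SB2.

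Snrpb went in the opposite direction to Snrpn. It was at 111, 113 and 114 CPM in SB2 and at 39.9, 43.5 and 41.2 CPM in SB4, with a log2 fold change of -1.43 ± 0.06 (SE, edgeR adjusted p = 1.85e-09). In BS6 it was at 79.8, 118 and 77.8 CPM and in BS2 at 38.0, 45.9 and 34.4 CPM, with a log2 fold change of 1.26 ± 0.21 (edgeR adjusted p = 0.00157). Within a library, where the scaling between libraries drops out, Snrpn made up 1.30%, 1.39% and 1.26% of the reads per kb of both genes in SB2 and 1.47%, 2.47% and 2.05% in BS6. In SB4 the shares were 75.4%, 75.7% and 74.8%, and in BS2 they were 76.8%, 75.1% and 80.1%. The share differed by 73.98 percentage points between SB4 and SB2 and by -75.33 between BS6 and BS2 (exact permutation tests, two-sided, both p = 0.1, 0.15 adjusted over 12 tests). BS6 also did not overlap SB2 (difference 0.683 points, exact permutation p = 0.1, 0.15 adjusted). BS2 and SB4 overlapped (difference 2.03 points, exact permutation p = 0.3, 0.36 adjusted). With each library left out in turn these differences were 0.449 to 0.945 and 0.623 to 3.16 points.

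**Figure D2:**
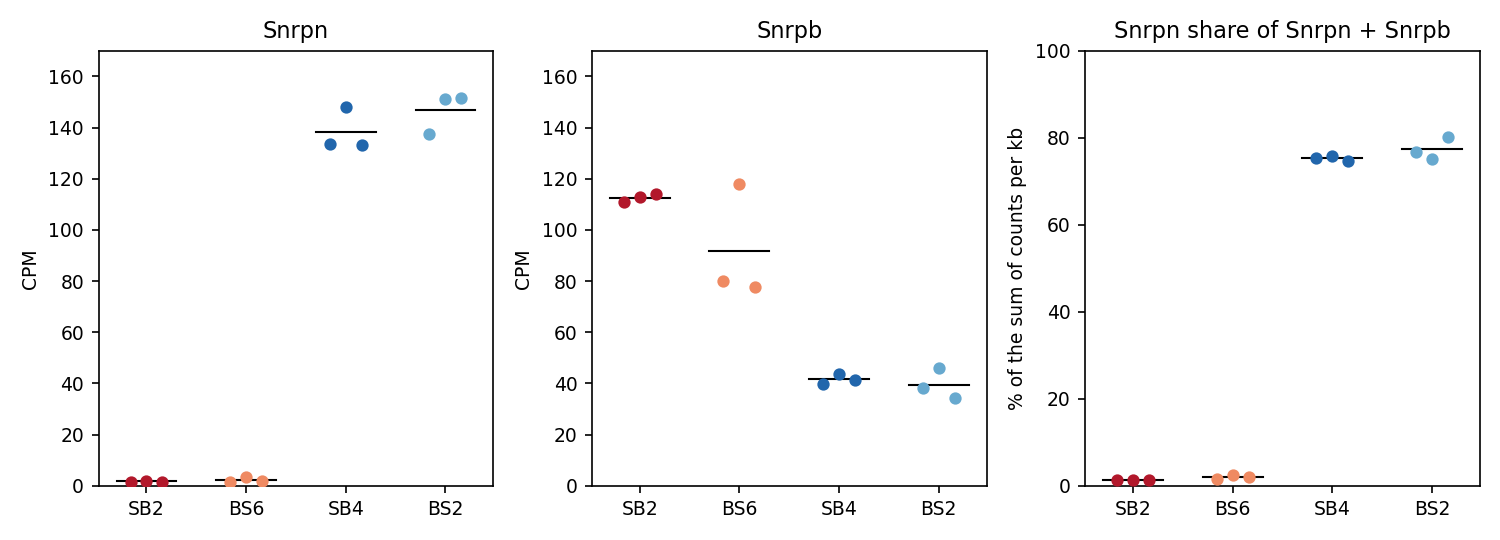
Levels of Snrpn and Snrpb in CPM, and the share of Snrpn in the sum of reads per kb of both genes in %, on linear axes from 0; points are libraries 1 to 3 of a group from left to right and bars are group means. Snrpn makes up 1.26% to 2.47% of the sum in the 6 libraries of SB2 and BS6 and 74.8% to 80.1% in the 6 libraries of SB4 and BS2.

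Ndn (plus strand of chr7:62346569-62350262) differed less. It was at 143, 134 and 126 CPM in SB4 and 128, 132 and 118 CPM in BS2, and at 34.7, 41.4 and 41.5 CPM in SB2 and 26.1, 15.2 and 27.2 CPM in BS6. All neuron-rich libraries were above all others, and BS6 was below SB2 in every library. The log2 fold change was 1.78 ± 0.08 (SE) in SB4 against SB2 (edgeR adjusted p = 3.26e-09) and -2.43 ± 0.23 in BS6 against BS2 (edgeR adjusted p = 0.000121). Per kb of exon the bone-rich libraries held more Ndn than Snrpn, with 10.6 CPM per kb of Ndn and 0.759 CPM per kb of Snrpn in SB2.

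The start windows of Snrpn and Ndn are shown because both genes stood higher in the neuron-rich groups and share a motif. The palindrome CGCATGCG, read alike on both strands and chosen after the windows had been read, occurs in 5 of the 18 RefSeq windows of the members (GRCm38.p6), namely in all 4 of Snrpn and in that of Ndn. By gene this is 2 of the 8 members with a window, beside 2.07% of 27025 genes, and 1.87% of 32851 windows of the same length hold it. The other 3 Snrpn windows have identical runs of 49 to 62 bases in common and are not separate occurrences, whereas the window shown has no identical run over 10 bases with any of them. CCAAT, GCCATNTT and GGGCGG were also searched on both strands, and 37.4%, 6.05% and 35.7% of windows hold them. The Snrpn window is chr7:60005150-60005449 on the minus strand and that of Ndn is chr7:62348027-62348326 on the plus strand, with CGCATGCG in capitals.
Snrpn: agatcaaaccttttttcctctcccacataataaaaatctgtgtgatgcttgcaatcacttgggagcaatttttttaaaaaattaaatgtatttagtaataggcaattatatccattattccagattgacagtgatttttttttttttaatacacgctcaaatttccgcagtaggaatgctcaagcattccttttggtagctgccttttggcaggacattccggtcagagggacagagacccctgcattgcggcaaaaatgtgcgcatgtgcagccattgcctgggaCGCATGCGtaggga
Ndn: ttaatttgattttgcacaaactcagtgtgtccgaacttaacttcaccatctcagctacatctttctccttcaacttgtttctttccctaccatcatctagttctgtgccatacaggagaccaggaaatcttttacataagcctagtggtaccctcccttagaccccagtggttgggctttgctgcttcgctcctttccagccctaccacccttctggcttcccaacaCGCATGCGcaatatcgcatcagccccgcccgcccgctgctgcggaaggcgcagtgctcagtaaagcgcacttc

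Peg3 encodes a paternally expressed zinc finger protein, found on the minus strand of chr7:6703892-6730431. It was at 587, 559 and 569 CPM in SB4, 579.5, 470.2 and 538 CPM in BS2, 125, 139.5 and 126 CPM in SB2, and 133, 168 and 224 CPM in BS6. The neuron-rich groups were higher without overlap. Peg3 had a log2 fold change of 2.14 ± 0.07 (SE) in SB4 against SB2 (edgeR adjusted p = 2.19e-10) and -1.56 ± 0.21 in BS6 against BS2 (edgeR adjusted p = 0.000598). Usp29, which is read in the opposite direction from the same promoter region, was also higher in SB4, with 0.878 ± 0.127 CPM (SD, n = 3) in SB2 and 24 ± 4.35 CPM in SB4 (log2 fold change 4.77 ± 0.20 SE, edgeR adjusted p = 1.24e-09).

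Mest (plus strand of chr6:30723547-30748465) is a paternally expressed gene for an enzyme-like protein of mesoderm and its derivatives. It had the smallest log2 fold change in size of the 10 genes in SB4 against SB2 and in BS6 against BS2. SB2 held 76.3, 71.5 and 60.9 CPM and SB4 held 27.4, 29.3 and 29.1 CPM. BS2 held 29.7, 30.6 and 30.9 CPM, while BS6 held 85.4, 10.3 and 50.1 CPM. BS6 spanned the range of the other groups, with its second library below every library of the neuron-rich groups. Mest was lower in SB4 than in SB2 by a log2 fold change of -1.28 ± 0.09 (SE, edgeR adjusted p = 1.47e-07), and BS6 against BS2 gave 0.71 ± 0.65 (edgeR adjusted p = 0.355). Without the second BS6 library this was 1.20 (edgeR adjusted p = 0.00212), which passed the call, and without the first it was 0.0281 (edgeR adjusted p = 0.97). BS6 against SB2 gave -0.51 ± 0.65 and moved between -1.19 and -0.0292 with each library left out, -1.19 being the value without the first BS6 library. Copg2 lies antisense to Mest and covers 23.1% of its exon bases. It went the other way, at 33.5 ± 3.00 CPM (SD, n = 3) in SB2 and 76.6 ± 0.34 CPM in SB4 (log2 fold change 1.20 ± 0.08 SE, edgeR adjusted p = 7.22e-08). Mir335, in an intron of Mest, had 0 to 2 reads in each library.

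**Figure D3:**
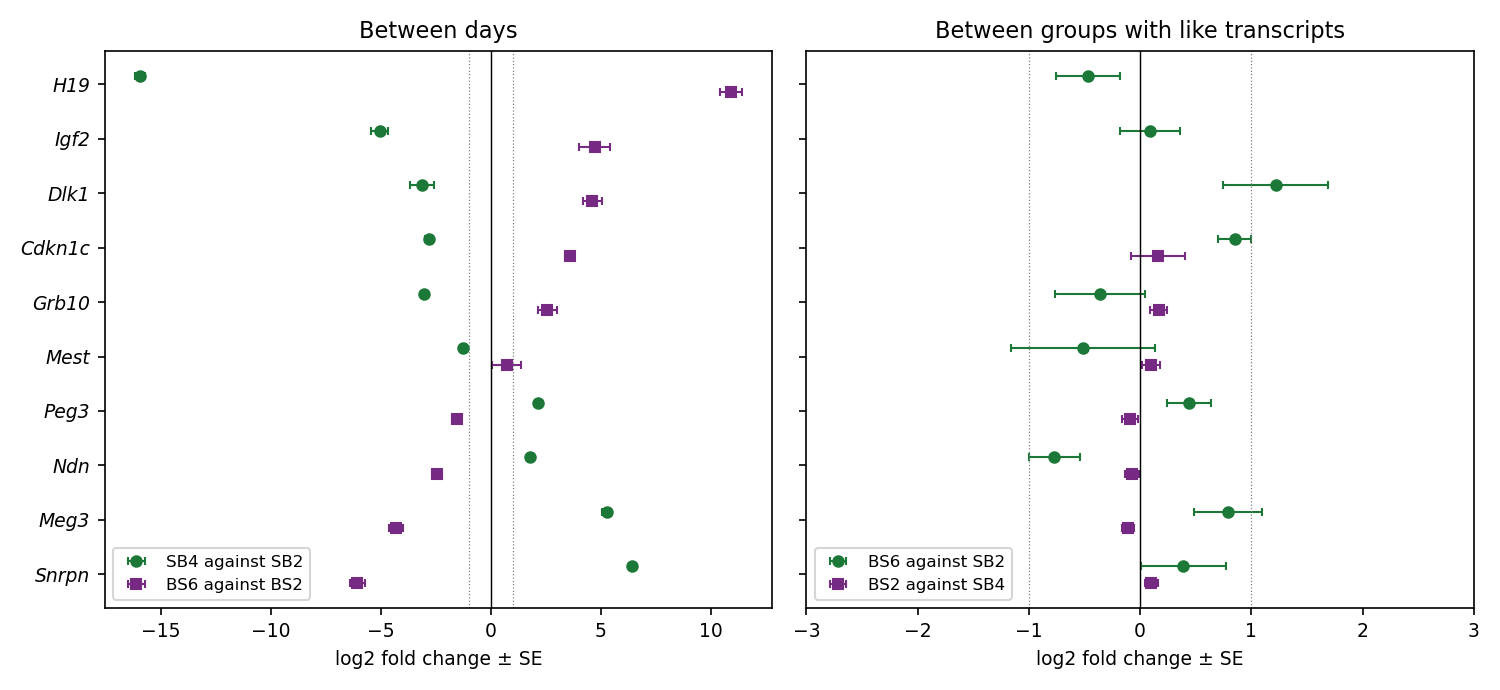
Log2 fold changes with SE from edgeR fits of 3 against 3 libraries, for SB4 against SB2 and BS6 against BS2 (left) and for BS6 against SB2 and BS2 against SB4 (right), with dotted lines at -1 and 1 and different axis ranges. H19 in SB4 against SB2 is a fitted value against libraries at 0 counts, and H19, Igf2 and Dlk1 were not tested in BS2 against SB4; the other values in the right panel lie between -0.77 and 1.22.

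The order of the 4 group means was compared between neighbours. For 9 of the genes, the pair of groups rich in the same tissue's transcripts stood together at either end, and the only step that was called lay between these pairs, with the steps of H19, Igf2 and Dlk1 between SB4 and BS2 not tested for low counts. Between all pairs of groups with unlike transcripts the background was similar, 56.2% for BS2 against SB2 and 55.4% for BS6 against SB4. Mest was in the order SB2, BS6, BS2, SB4, with no step called (edgeR adjusted p = 0.64, 0.355 and 0.666).

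Between the bone-rich groups, BS6 against SB2, 0 of the 10 genes were called, beside 1.86% of 16329 genes tested. Of the 303 genes of the table called in this way 60.1% were higher in BS6, and with library totals in place of TMM factors 43.4% of the calls were. At an adjusted p under 0.05 alone it was 1 of 10, beside 5.71%. DESeq2 also called 0 of the 10, beside 6.47% of 16556 genes to which it gave an adjusted p, and 4 of 10 had an unadjusted edgeR p under 0.05, beside 29.2% of all genes tested. Cdkn1c had an adjusted p of 0.0365 (edgeR), but its log2 fold change of 0.85 ± 0.15 (SE) was under the threshold. Dlk1, the largest of the differences, was 1.22 ± 0.47 (edgeR adjusted p = 0.152), Meg3 was 0.79 ± 0.31 (0.155) and Ndn was -0.77 ± 0.23 (0.0933). H19 was -0.47 ± 0.29 (0.321), Igf2 0.09 ± 0.27 (0.848), Grb10 -0.36 ± 0.41 (0.599), Mest -0.51 ± 0.65 (0.64, and 0.267 without the first BS6 library), Peg3 0.44 ± 0.19 (0.19) and Snrpn 0.39 ± 0.38 (0.535). The median size was 0.49 over the 10 genes and 0.31 over all genes.

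The second BS6 library was the lowest of its group for H19, Grb10, Mest and Ndn, among others. Relative to the SB2 mean it held 41.6% of H19, 34.6% of Grb10, 14.8% of Mest and 38.7% of Ndn, whereas BS6 libraries 1 and 3 held 85.5% and 88.2%, 119% and 78.4%, 123% and 72.0%, and 66.6% and 69.3%. For Dlk1 (169%, beside 226% and 298%) and Cdkn1c (151%, beside 195% and 189%) it remained above the SB2 mean. The same library had the lowest osteoblast and osteocyte marker sum of the group (19200 CPM, beside 55700 and 79400), the lowest mural and meningeal sum (4340 CPM, beside 27800 and 18400) and the highest neutrophil sum (23400 CPM). The part of these cell types in the levels of H19, Grb10, Mest and Ndn was not tested. For other genes the third BS6 library stood furthest from the rest of its group, again relative to the SB2 mean. These were Meg3 (107%, beside 200% and 204%), Igf2 (135%, beside 95.6% and 86.1%) and Peg3 (172%, beside 102% and 129%).

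**Figure D4:**
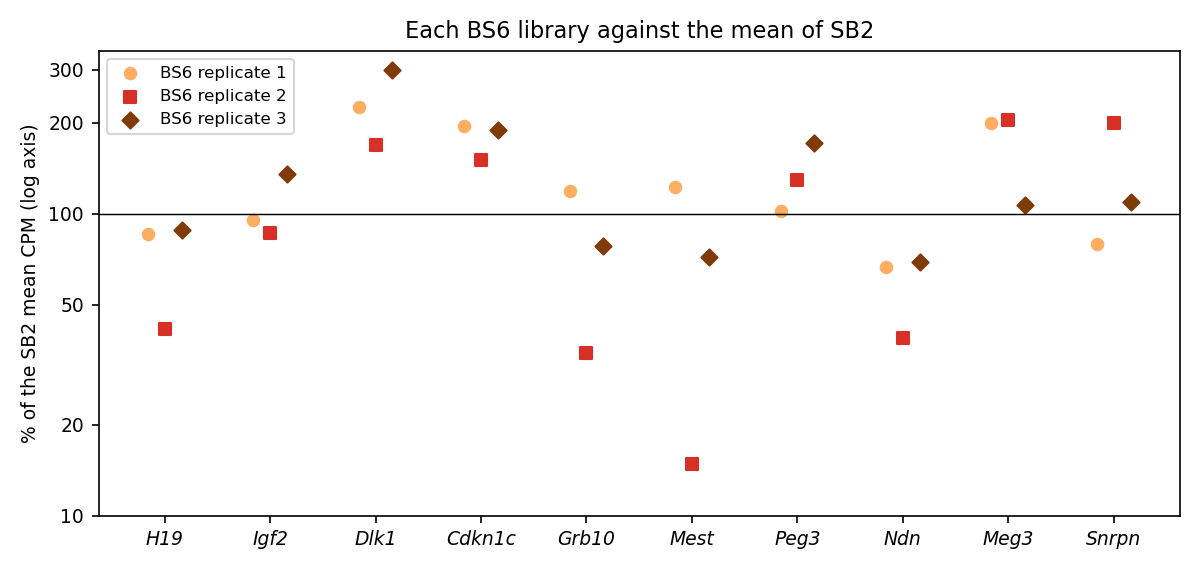
Level of each of the 10 genes in each BS6 library as % of the SB2 mean in CPM, on a logarithmic axis with a line at 100%. The second library is the lowest of the 3 for H19, Igf2, Dlk1, Cdkn1c, Grb10, Mest and Ndn, reaching 14.8% for Mest, and the highest for Meg3 and Snrpn.

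Between the neuron-rich groups, BS2 against SB4, 7 of the 10 genes had enough counts for the test, and 0 were called by edgeR or DESeq2, beside 0.147% of 16278 genes in edgeR and 0.277% of 16616 in DESeq2. Of the 7, 1 had an unadjusted edgeR p under 0.05, beside 11.9% of all genes tested, namely Grb10 (log2 fold change 0.17 ± 0.08 SE, adjusted p = 0.393). Meg3 was -0.11 ± 0.05, Peg3 -0.09 ± 0.07, Mest 0.10 ± 0.08, Cdkn1c 0.16 ± 0.24, Snrpn 0.10 ± 0.06 and Ndn -0.07 ± 0.06 (edgeR adjusted p = 0.43 to 0.855). The median size was 0.1, the same as over all genes. H19, Igf2 and Dlk1, with 0 to 10 reads a library in both groups, were under or near the limit of detection.

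Of 22 further paternally expressed genes, 20 were tested in SB4 against SB2, of which 9 were higher, 7 lower and 4 not called, beside 27.8% higher and 28.6% lower over all genes, with a median log2 fold change of 0.61. BS6 against BS2 gave 6 higher, 9 lower and 4 not called of 19, beside 29% higher and 26.5% lower, with a median of -0.85. Nap1l5, a nucleosome assembly protein gene of brain, averaged 419 ± 26.4 CPM (SD, n = 3) in SB4 and 3.93 ± 1.01 CPM in SB2. Slc38a4, an amino acid transporter, averaged 26.4 ± 2.30 CPM in SB2 and 0.939 ± 0.138 CPM in SB4, and Airn, the noncoding RNA that runs through Igf2r, averaged 16.8 ± 1.77 CPM and 0.842 ± 0.116 CPM.

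Of 18 further maternally expressed genes, 15 were in the table and 14 were tested. In SB4 against SB2 4 were higher, 8 lower and 2 not called, beside 27.8% higher and 28.6% lower over all genes, with a median of -1.1, and in BS6 against BS2 8 were higher, 4 lower and 2 not called, beside 29% higher and 26.5% lower, with a median of 1.15. Besides Rian, Mirg and Igf2r, the phospholipid flippase gene Atp10a averaged 28.7 ± 4.17 CPM (SD, n = 3) in SB2, 20.8 ± 3.30 CPM in BS6 and 8.23 ± 1.62 CPM in BS2. In BS6 against SB2 edgeR called 0 of 19 tested paternally and 0 of 14 tested maternally expressed genes, beside 1.86% of all genes, with 4 and 2 at an unadjusted p under 0.05, beside 29.2%, and DESeq2 called 1 of each, Peg10 and Slc22a3 (named after their values were seen), beside 6.47% of all genes. In BS2 against SB4 both tools called 0 of 18 and 0 of 11, beside 0.147% of all genes in edgeR and 0.277% in DESeq2, with 5 and 2 at an unadjusted p under 0.05 in edgeR, beside 11.9%.

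Of 22 paralogs and partners of the 10 genes 21 were tested. In SB4 against SB2 3 were higher, 11 lower and 7 not called, beside 27.8% higher and 28.6% lower over all genes, with a median log2 fold change of -1.15, and in BS6 against BS2 10 were higher, 2 lower and 9 not called, beside 29% higher and 26.5% lower, with a median of 0.92. Dlk2, the paralog of Dlk1, went against Dlk1, with 1.16 ± 0.29 CPM (SD, n = 3) in SB2 and 32.8 ± 1.58 CPM in SB4 (log2 fold change 4.81 ± 0.16 SE, edgeR adjusted p = 1.51e-10). The 4 genes of this list from the MAGE family, to which Ndn belongs, differed in direction (Maged1, Maged2 and Mageh1 were named after their values were seen). Magee1 was at 16.6 ± 1.47 CPM in SB2 and 159 ± 5.86 CPM in SB4, as Ndn higher in SB4, whereas Maged2 was lower there, at 151 ± 7.67 CPM and 33.4 ± 1.89 CPM (log2 fold change -2.17 ± 0.07 SE, edgeR adjusted p = 1.32e-10). Maged1 (623 ± 54.5 CPM and 455 ± 14.2 CPM) and Mageh1 (21.2 ± 1.22 CPM and 22.3 ± 0.93 CPM) were not called. Notch2, a receptor of the pathway on which Dlk1 acts, was at 163.9 ± 3.44 CPM in SB2 and 14.5 ± 0.96 CPM in SB4. In BS6 against SB2 edgeR and DESeq2 called 0 of the 21, beside 1.86% and 6.47% of all genes. At an edgeR adjusted p under 0.05 alone it was 2, beside 5.71%, and at an unadjusted p under 0.05 10, beside 29.2%. In BS2 against SB4 both called 0, beside 0.147% and 0.277%, with 2 at an unadjusted edgeR p under 0.05, beside 11.9%.

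Of 14 tested genes of a list on imprint maintenance, 2 were higher, 2 lower and 10 not called in either days comparison, beside 56.4% and 55.5% of all genes called. The list also held Dnmt3a and Dnmt3b, which set DNA methylation, and Tet1, Tet2 and Tet3, which take part in its removal. The medians of the log2 fold change were 0.33 and -0.05. In BS6 against SB2 edgeR and DESeq2 called 0 of the 14, beside 1.86% and 6.47% of all genes. At an edgeR adjusted p under 0.05 alone it was 1, beside 5.71%, and at an unadjusted p under 0.05 4, beside 29.2%. In BS2 against SB4 both called 0, beside 0.147% and 0.277%, with 3 at an unadjusted edgeR p under 0.05, beside 11.9%. Zfp445, a zinc finger protein that binds imprinting control regions, averaged 81.9 ± 11.1 CPM (SD, n = 3) in SB2 and 279.5 ± 4.11 CPM in SB4, and Arid4b, a chromatin protein, averaged 37.0 ± 2.84 CPM and 87.4 ± 4.40 CPM. Uhrf1, which brings DNA methyltransferase to replicating DNA, averaged 69.96 ± 6.18 CPM in SB2 and 45.4 ± 19.3 CPM in BS6, against 0.622 ± 0.374 CPM in SB4 and 0.921 ± 0.216 CPM in BS2.

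The genes most like each of the 10 were found among 11372 or 11373 genes with a mean of 10 CPM or more, by the root mean square difference of log2(CPM + 1), centred on each gene's mean, over the 12 libraries. For Snrpn they were Napb (0.0722), Negr1 and Celf4, for Ndn Trim46 (0.129), Tmem246 and Myh10, for Peg3 Plxna4 (0.136), Mamld1 and Cdip1, and for Meg3 Srrm4 (0.17), Sgip1 and Unc5a. H19 came closest to Acp5 (0.201), Mmp2 and Crispld2, Grb10 to Prdx4 (0.124), Myo1e and Pdlim4, Cdkn1c to Tal1 (0.183), Homer3 and Notch3, and Igf2 to Hmg20b (0.161), Dock6 and Fat4. Dlk1 (S1pr3, 0.328, then Mylip and Farp2) and Mest (Igdcc4, 0.253, then Qpct and Mdga1) had the least close matches. These distances are descriptions over libraries that share their groups. The 1 added to the CPM narrows fold differences that reach low levels, such as those of H19, Igf2 and Dlk1. A close match of these genes therefore need not share their fold change.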

How the data were processed

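The authors isolated poly(A) mRNA, sequenced it paired-end (150 bases), trimmed reads with fastp 0.23.0 and mapped them to mm10 with HISAT2 2.1.0 (versions from the submitters' processing notes and the study's methods). They deposited unnormalized counts of reads for each gene symbol in 1 table. The counting program, annotation and use of strand, and whether a ComBat_seq batch correction came before, are not given in the sources used here. Columns were matched to the samples by title, and 0 columns belonged to other samples. The study calls the libraries of a group biological replicates. The animals behind them are not named in the labels, so p-values measure the spread between these libraries.

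Counts were tested with edgeR 4.0.16 (R 4.3.3): the filterByExpr filter at 10 counts, TMM scaling, robust quasi-likelihood fits of 3 against 3 libraries, and Benjamini-Hochberg adjustment over all genes tested. Calls needed an adjusted p under 0.05 and a log2 fold change over 1 in size. The SE was taken as the fold change (log2) over the root of the F statistic. The difference between both days comparisons was a contrast over 12 libraries. Levels are CPM with TMM factors over the 12 libraries. Exon lengths and coordinates are those of GENCODE M21 on mm10, in which 21982 of 22317 symbols matched once. Ratios within libraries used reads per kb, with 0.5 counts added for the log2 ratios, and exact permutation tests (scipy 1.17.1). Intervals of ratios are exact binomial and cover counting error only, as reads carry no molecular identifiers. RefSeq windows were found for 8 of the 10 genes. No window of H19 or Cdkn1c was used here. The procedure was tested on simulated data. These had a common dispersion and few changed genes, unlike the libraries here. The simulation therefore does not cover changes as broad as those between unlike groups.

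The members and lists were chosen with earlier results of these data known. Named beside the members were, from each list, up to 2 called genes with the highest and 2 with the lowest log2 fold change in SB4 against SB2 at 10 CPM or more in a group, and the 3 genes most like each member. Snrpb, Copg2, Gm38393 and Mir335 were named as partner or overlapping genes. Of the 13 marker lists, those for neurons and for osteoblasts and osteocytes checked the tissue. In SB4 against SB2 the medians of the log2 fold change were 7.96 and -6.99 for these, 3.55 for astrocytes, 5.3 for oligodendrocytes, -2.29 for endothelium, -6.28 for mural and meningeal cells, -0.23 for choroid plexus and ependyma, -2.97 for chondrocytes, -8.27 for skeletal muscle, -7.31 for adipocytes, -3.34 for erythroid cells, -9.64 for neutrophils and 1.03 for the pituitary. Alternatives were DESeq2 1.42.0, other scaling factors and filters, a fit over all libraries, the replicate number as a block, raw in place of per-kb counts, 5 added counts, and leaving out each library.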

Additional observations from a re-analysis of the deposited data

Results flagged for a closer look

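The change between days differed between the libraries labelled brain and those labelled skull for all 10 genes (edgeR contrast of BS6 against BS2 minus SB4 against SB2 over 12 libraries, adjusted p under 0.05, met by 84.9% of genes tested). The difference of log2 fold changes was 9.79 for Igf2, 7.75 for Dlk1, 6.41 for Cdkn1c, 5.59 for Grb10 and 2.0 for Mest (edgeR adjusted p = 0.0218). Without the first BS6 library the difference for Mest was 1.27 (edgeR adjusted p = 0.0734), which did not pass. It was -12.45 for Snrpn, -9.57 for Meg3, -4.2 for Ndn and -3.69 for Peg3. The fitted value of 26.79 for H19 rests on libraries with 0 counts and sets no size.

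The named genes of the lists differed in the same contrast. Those with a positive difference were Uhrf1 (12.4), Igfbp5 (9.81), Pappa2 (9.64), Cdk2 (9.33), Slc38a4 (8.82), Airn (8.18), Notch2 (7.05), Igf2r (3.47) and Atp10a (2.9). Negative differences were found for Nap1l5 (-12.28), Usp29 (-9.18), Dlk2 (-9.14), Rian (-7.31), Magee1 (-6.44), Mirg (-5.24), Zfp445 (-3.46), Irs2 (-2.48) and Arid4b (-2.34). Since BS2 and SB4 are rich in neuronal and SB2 and BS6 in bone transcripts, tissue content and days cannot be told apart in this contrast.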

How the results depend on the processing

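The number of genes called in SB4 against SB2 stayed at 10 with DESeq2, other scaling factors, no filter, the adjusted p alone and without any single library. A filter of 10 counts in every library took H19, Igf2 and Dlk1 out of the test and left 7 in SB4 against SB2 and 6 in BS6 against BS2. The contrast between both days comparisons kept 10 genes at an adjusted p under 0.05, with 7 under this filter and 9 without the first BS6 library, where Mest was lost, as exceptions. With each library left out it was 9 to 10 in BS6 against BS2 and in BS6 against SB4, since Mest was called without the second BS6 library (log2 fold change 1.20 and 1.28, edgeR adjusted p = 0.00212 and 0.00193), whereas without the first it was 0.0281 and 0.114 (edgeR adjusted p = 0.97 and 0.874). In BS6 against SB2 it was 0 under every setting except with the adjusted p alone, which gave 1, Cdkn1c. Over all genes DESeq2 called 1072 in BS6 against SB2 and 46 in BS2 against SB4, where edgeR called 303 and 24. Single genes changed direction only between groups of like transcripts. Leaving out each library in turn gave log2 fold changes of -0.12 to 0.30 for Igf2 and -0.0751 to 0.65 for Snrpn in BS6 against SB2, and -0.0283 to 0.31 for Cdkn1c in BS2 against SB4. The difference in the log2 ratio of Meg3 to Dlk1 between BS2 and SB4 was -0.29 to 0.50 without each library and -0.0334 with 5 counts added, in place of 0.13. None of these had passed a test, and the cause was not tested. In the fit over all 12 libraries Mest in BS2 against SB2 lost its call (log2 fold change -1.18, edgeR adjusted p = 0.0506). Upper-quartile factors moved the median log2 fold change of all genes in SB4 against SB2 from -0.0149 to -0.145 and library totals moved it to -0.105, and no call of the 10 genes changed.

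With the replicate number as a block the counts of called genes were 10 for SB4 against SB2, 9 for BS6 against BS2 and 0 for BS6 against SB2 and BS2 against SB4, as without it. Deviations of same-numbered libraries from their group means correlated at -0.177 to 0.136. No values for differently numbered libraries are given here to compare them with, and whether the numbers pair the samples was not tested. Depth limits H19, Igf2 and Dlk1 in SB4 and BS2, where they had 0 to 10 reads a library.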
